A study of Mus musculus with 8 samples.

Results

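Transcripts of 10 genes of the Fc receptor and paired myeloid receptor families were followed in fat cell precursors without and with Irf3. They were the receptors for IgG Fcgr1, Fcgr2b, Fcgr3 and Fcgr4, the adaptors Fcer1g and Tyrobp, and the receptors Lilra6, Fcrls, Cd300ld and Clec7a. They were chosen by name, with their difference between the genotypes on these arrays already known, and every probe of each was taken by its present or older symbol. The 10 genes had 16 probes among the 25697 probes of the array, and all 10 were among the 9758 genes tested. The probe with the highest mean stands for each gene below unless another is named.

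The cells were preadipocytes from white adipose tissue, put through adipocyte differentiation in high-glucose DMEM with newborn calf serum, insulin and ascorbate. The groups were Irf3 knockout cells at days 3, 5, 7 and 9 and wildtype cells at the same days, without further treatment. Each of these 8 groups had 1 array, so no single day had a replicate, and the 4 days were the repeats of the genotype comparison. The deleted part of Irf3, the strain and age of the mice, and the number of cultures or animals behind a genotype were not stated in the labels. A difference between the genotypes can therefore also be a difference between single cultures or animals, and the p-values measure the spread between these arrays.

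All levels are log2 intensities of Illumina bead arrays after background correction and quantile normalization, and a probe counted as above background on an array where its detection p was under 0.05. Mean raw intensity was 924 to 1026 on the knockout arrays and 638 to 1011 on the wildtype arrays, with wildtype day 3 the dimmest. Irf3 itself read 10.75, 10.72, 10.36 and 11.09 on the knockout arrays of days 3, 5, 7 and 9, against 11, 11.21, 11.38 and 11.35 on the wildtype arrays. Whether that probe lies in the deleted part is unknown here, so it does not check the labels.

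Fc receptors bind the constant end of antibodies that have coated a particle, and so let a phagocyte take it up and respond to it. Activating receptors signal through a tyrosine-based activation motif, the ITAM, which most of them borrow from the adaptors encoded by Fcer1g and Tyrobp, while inhibitory receptors carry an inhibitory motif, the ITIM, that recruits phosphatases against the same cascade. In adipose tissue the main cells known to carry these receptors are macrophages, with mast cells and other leukocytes as lesser sources.

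Promoter windows are shown for the genes with the most distinct patterns below: Fcgr2b and Fcgr3, the inhibitory receptor for IgG and the activating one with the most similar difference, Cd300ld, the 1 gene lower in knockout, and Fcrls, the gene of the 10 with the steepest slope in knockout. Each runs from 250 bases before to 50 bases after a start site in RefSeq's promoter table on build GRCm38.p6, all on the minus strand, 5′ to 3′. For Fcgr2b and Cd300ld that site is the 5′ end of the annotated gene, and for Fcgr3 and Fcrls it lies inside the annotated gene. Capitals mark the core bound by the myeloid factor PU.1 (GAGGAA on either strand) and the spaced half-site pair of the IRF family (GAANNGAA on either strand).
Fcgr2b, chr1:170976022-170976321: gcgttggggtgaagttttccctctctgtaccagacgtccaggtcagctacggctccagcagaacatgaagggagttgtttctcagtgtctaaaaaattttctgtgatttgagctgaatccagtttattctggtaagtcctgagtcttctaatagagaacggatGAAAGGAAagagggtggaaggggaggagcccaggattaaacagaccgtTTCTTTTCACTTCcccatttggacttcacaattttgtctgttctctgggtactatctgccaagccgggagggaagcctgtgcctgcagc
Fcgr3, chr1:171059354-171059653: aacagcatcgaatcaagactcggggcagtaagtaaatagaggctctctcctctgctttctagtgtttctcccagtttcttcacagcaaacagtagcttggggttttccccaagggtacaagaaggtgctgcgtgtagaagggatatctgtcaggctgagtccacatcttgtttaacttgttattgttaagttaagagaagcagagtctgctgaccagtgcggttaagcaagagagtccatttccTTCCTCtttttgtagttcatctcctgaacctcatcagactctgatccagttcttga
Cd300ld, chr11:114989837-114990136: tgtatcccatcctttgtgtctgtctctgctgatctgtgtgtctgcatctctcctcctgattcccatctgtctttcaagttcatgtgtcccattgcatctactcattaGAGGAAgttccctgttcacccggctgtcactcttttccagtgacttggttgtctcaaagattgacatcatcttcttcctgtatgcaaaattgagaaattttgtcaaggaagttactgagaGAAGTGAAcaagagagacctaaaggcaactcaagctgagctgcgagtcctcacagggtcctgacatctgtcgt
Fcrls, chr3:87263475-87263774: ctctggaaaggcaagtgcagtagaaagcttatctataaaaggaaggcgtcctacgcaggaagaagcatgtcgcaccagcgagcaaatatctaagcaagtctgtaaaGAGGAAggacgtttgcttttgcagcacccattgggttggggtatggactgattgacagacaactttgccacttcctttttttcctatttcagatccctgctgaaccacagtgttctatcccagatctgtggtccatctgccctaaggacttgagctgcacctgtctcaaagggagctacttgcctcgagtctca
The Fcgr2b window held 3 matches to the IRF pair, of which the last 2 overlap, and none to the PU.1 core. The Fcgr3 and Fcrls windows each held 1 PU.1 core and no IRF pair, and the Cd300ld window held 1 of each. RefSeq's promoter table had 9 of the 10 genes, without Tyrobp. The PU.1 core stood in 7 of the 9, against 28.3% of 27025 genes, and the IRF pair stood in 3 of the 9 (Fcgr2b, Cd300ld and Clec7a), against 20.2%. These matches describe letters in a window and were not tested as binding sites. In the same annotation Fcgr2b, Fcgr4, Fcgr3 and Fcer1g follow each other in that order on chromosome 1.

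Of the 10 genes, 9 read higher in knockout than in wildtype on each of the 4 days, and Cd300ld read lower on each. The share of all genes that did either is not given here, so these counts have no background to be set against. Averaged over the days, the 10 differences had a median of 2.23 on the log2 scale and ran from -1.77 for Cd300ld to 3.10 for Fcrls, both means that include arrays not above background, where the median of all 9758 genes was -0.019. Without background correction the median of the 10 was 1.44. Because the genes were picked with this difference known, it is a description here and carries no test. Over all genes limma called 2.74% higher and 2.11% lower in knockout. Fcgr2b, Fcgr3, Fcer1g and Tyrobp were at least 2-fold higher in knockout on each of the 4 days, as were 79 of all genes (0.81%). In bulk cultures a larger share of cells of a type and more RNA per cell cannot be told apart.

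**Figure D1:**
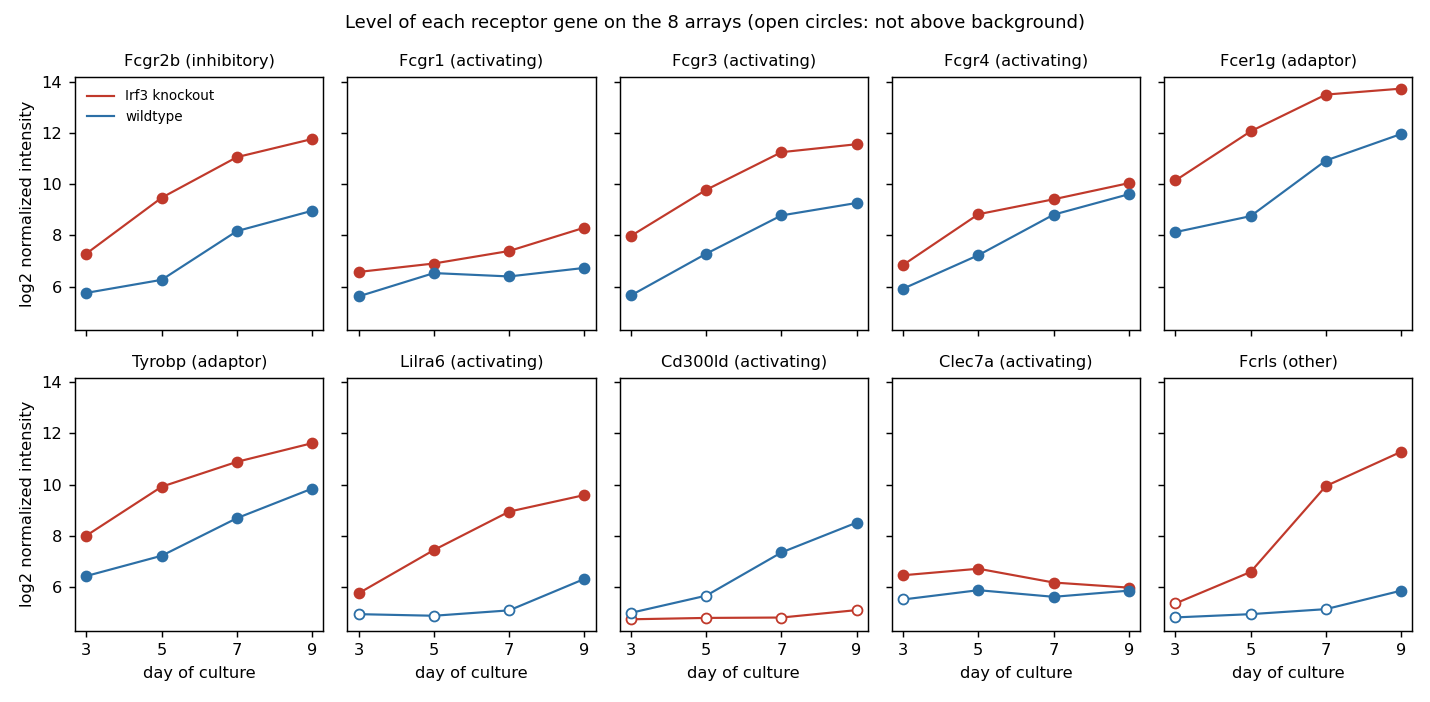
Level of each of the 10 genes (log2 normalized intensity, vertical axis) against day of culture, 1 array per point, with knockout in red and wildtype in blue and open circles for arrays on which the probe was not above background. The knockout line lies above the wildtype line on all 4 days for 9 genes and below it for Cd300ld.

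Fcgr2b encodes the inhibitory receptor for IgG, which holds an ITIM in its own tail. Its level was 7.29, 9.47, 11.05 and 11.76 on the knockout arrays of days 3, 5, 7 and 9, against 5.75, 6.26, 8.16 and 8.96 on the wildtype arrays. The raw intensities behind these were 295, 888, 2520 and 3602 in knockout, against 138, 237, 456 and 601 in wildtype. Knockout was higher on every day, and the knockout day 5 array already stood above the wildtype day 9 array. The difference was 1.53 at day 3 and between 2.80 and 3.20 at the later days, with a mean of 2.61 ± 0.74 (SD over 4 days), or 6.09-fold.

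Fcgr2b had 3 probes. The probe ILMN_3102376 gave a difference of 2.16 ± 1.25 (SD over 4 days) and was above background on 3 knockout and 2 wildtype arrays. The probe ILMN_3029178 was above background on 1 knockout array, day 9, and on no wildtype array, so it gives no fold. The probes may read different transcripts of the gene, which was not tested.

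Among the activating receptors for IgG, Fcgr3 had the steadiest difference of all 10 genes. Fcgr3 encodes a low-affinity receptor that signals through the Fcer1g adaptor. It read 7.97, 9.77, 11.24 and 11.55 in knockout, against 5.65, 7.28, 8.77 and 9.26 in wildtype. Knockout exceeded wildtype on every day by 2.29 to 2.49, a mean of 2.39 ± 0.10 (SD over 4 days), or 5.26-fold. Its wildtype signal was near background at day 3, with a detection p of 0.0451. The mean ranged from 1.76 to 2.62 under the other settings, so the SD understates its uncertainty.

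Fcgr1 encodes the high-affinity receptor for monomeric IgG. It read 6.57, 6.90, 7.39 and 8.30 in knockout, against 5.62, 6.52, 6.39 and 6.73 in wildtype. Knockout was higher each day, with the smallest gap of 0.37 at day 5 and the largest of 1.57 at day 9. The mean difference was 0.97 ± 0.49 (SD over 4 days), or 1.96-fold, and 0.45 without background correction. Its wildtype signal was near background, with a detection p of 0.0476 at day 3.

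Fcgr4 encodes a further activating receptor that pairs with Fcer1g. It read 6.84, 8.82, 9.40 and 10.04 in knockout, against 5.92, 7.22, 8.81 and 9.60 in wildtype. Here the gap was widest at day 5, at 1.60, and narrowest at day 9, at 0.43, with a mean of 0.89 ± 0.52 (SD over 4 days), or 1.85-fold.

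The difference of Fcgr2b exceeded the mean difference of Fcgr1, Fcgr3 and Fcgr4 by 0.13, 1.72, 1.53 and 1.37 on days 3, 5, 7 and 9, a mean of 1.19 ± 0.72 (SD over 4 days). The gap was thus near 0 at day 3 and above 1 on the other days. It came from Fcgr1 and Fcgr4: against Fcgr1 alone it was 1.63 ± 0.96 and against Fcgr4 alone 1.72 ± 0.82, above 0 on 4 of 4 days in both. Against Fcgr3 it was 0.21 ± 0.68, above 0 on 3 of 4 days and within 1 SD of 0. By its main probe Fcgr2b was therefore higher in knockout by about as much as Fcgr3 and by more than Fcgr1 and Fcgr4. This is a description without a test. The second Fcgr2b probe, at 2.16, lay below Fcgr3 at 2.39. Without background correction the differences were 1.87 for Fcgr2b, 1.76 for Fcgr3 and 0.45 for Fcgr1. As Fcgr1 was near background in wildtype, the size of the gap against it is uncertain. Levels of different probes are not set against each other, so these arrays give no ratio of inhibitory to activating receptor.

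The adaptor Fcer1g is the common gamma chain, the signalling subunit of Fcgr1, Fcgr3 and Fcgr4 and of the IgE receptor of mast cells. It read 10.14, 12.06, 13.49 and 13.72 in knockout, against 8.12, 8.75, 10.92 and 11.95 in wildtype. Raw intensities were 1304, 4719, 12337 and 13929 in knockout, against 304, 599, 2265 and 3907 in wildtype. The difference was largest at day 5, 3.31, and smallest at day 9, 1.77, with a mean of 2.42 ± 0.68 (SD over 4 days), or 5.34-fold.

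Tyrobp encodes DAP12, the ITAM adaptor of the Trem family and of several paired receptors. It read 8.02, 9.92, 10.89 and 11.62 in knockout, against 6.44, 7.23, 8.69 and 9.85 in wildtype. Its difference also peaked at day 5, at 2.69, and the mean was 2.06 ± 0.50 (SD over 4 days), or 4.17-fold. Fcgr2b exceeded the adaptors' differences by 0.19 ± 0.65 for Fcer1g and 0.55 ± 0.45 for Tyrobp, above 0 on 2 and 3 of 4 days.

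**Figure D2:**
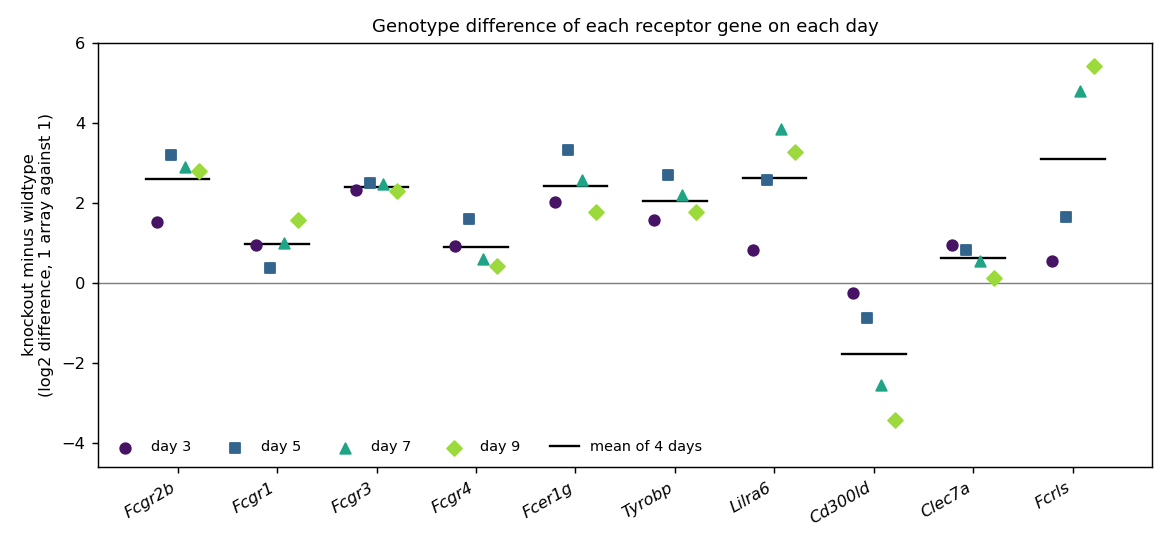
Knockout minus wildtype difference of each gene (log2, vertical axis) on days 3, 5, 7 and 9, each point 1 array against 1, with a black bar for the mean of the 4 days. The 4 points of Fcgr3 lie between 2.29 and 2.49, those of Fcrls and Lilra6 spread widely above 0, and those of Cd300ld lie below 0 and reach -3.41 at day 9.

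Lilra6, Fcrls and Cd300ld had larger differences at days 7 and 9 than at days 3 and 5. Lilra6 encodes an activating receptor of the paired immunoglobulin-like receptor family, which signals through Fcer1g. It read 5.76, 7.45, 8.95 and 9.60 in knockout, against 4.95, 4.89, 5.10 and 6.32 in wildtype. The gene was above background on all 4 knockout arrays, and in wildtype on the day 9 array alone. At day 9, the day with both genotypes above background, the difference was 3.27. The 4 daily differences averaged 2.63 ± 1.32 (SD), with 3 of the 4 wildtype readings not above background, so the size of this mean is not a measured fold. A second probe, ILMN_2603871, was above background on no array. The family has near-identical copies in the mouse, so which of them the probe reads is uncertain.

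Fcrls encodes an Fc receptor-like protein that is known as a marker of microglia and of some tissue macrophages, and it was placed with neither the activating nor the inhibitory receptors. It read 5.36, 6.60, 9.95 and 11.29 in knockout, against 4.82, 4.95, 5.14 and 5.87 in wildtype. Raw intensity was 176, 255, 1301 and 2639 in knockout, against 110, 178, 182 and 190 in wildtype. The knockout day 3 array and the wildtype arrays of days 3, 5 and 7 were not above background, so day 9 was the day with both genotypes above background, with a difference of 5.42. The 4 daily differences averaged 3.10 ± 2.38 (SD), which includes those readings and is not a measured fold. In the authors' processed matrix Fcrls stood at the floor of 20 on all arrays, so its difference does not appear there.

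Cd300ld, which encodes an activating receptor of the CD300 family, went the other way. It read 4.75, 4.80, 4.82 and 5.11 in knockout, against 5.00, 5.67, 7.36 and 8.52 in wildtype. Its raw intensity was 147 to 168 on the knockout arrays and not above background on any of them. Wildtype gave 117, 210, 325 and 477 and was above background at days 7 and 9. The mean difference was -1.77 ± 1.46 (SD over 4 days). With each array's lowest signal among probes above background as a limit, the knockout mean was 5.63, where the measured mean was 4.87. The wildtype mean of 6.64 was 2.01-fold above that limit. It includes wildtype days 3 and 5, which were not above background, so 2.01-fold is not a bound on a measured difference.

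Clec7a encodes Dectin-1, a receptor for fungal beta-glucan with an ITAM-like motif of its own. It read 6.47, 6.72, 6.18 and 5.98 in knockout, against 5.52, 5.88, 5.62 and 5.87 in wildtype. It was the only one of the 10 genes whose lowest knockout array lay above its highest wildtype array, by 0.10, which 2.31% of all genes did too. In the other 9 genes the knockout and wildtype arrays overlapped once the days were pooled. The separation was that of 1 probe: ILMN_2653132 overlapped (lowest knockout 5.79, highest wildtype 6.16), as did ILMN_2663258 (5.57 in knockout, 5.88 in wildtype). The daily difference was 0.95, 0.84, 0.56 and 0.12, with a mean of 0.61 ± 0.37 (SD over 4 days), or 1.53-fold. The probes ILMN_2653132 and ILMN_2663258 differed by 0.93 ± 0.57 and 0.43 ± 0.51, and ILMN_2770652 was above background on no array.

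By role, the mean difference had a median of 0.93 over the 6 activating receptors (Fcgr1, Fcgr3, Fcgr4, Lilra6, Cd300ld and Clec7a), with a range from -1.77 to 2.63. The adaptors had a median of 2.24. Fcgr2b, the 1 inhibitory receptor, stood at 2.61. The ends of the activating range are Cd300ld and Lilra6, which were above background on no knockout array and on 1 wildtype array, and Fcgr3, at 2.39, was the highest of those above background on all 8 arrays. With 1 inhibitory receptor among the 10, the roles were not tested against each other.

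The change over the culture was tested for every gene with limma, as a slope per day over all 8 arrays with genotype as a term. It is a separate measure from the genotype difference, but the genes were chosen with earlier results of these data known. Whether those results included this change is not stated, so the counts below describe the genes and are no independent test. Of the 10 genes, 8 rose with day at an adjusted p under 0.05, and none fell. Of all 9758 genes, 8.54% rose by the same test. The median slope of the 10 genes was 0.58 per day on the log2 scale, where that of all genes was -0.010. Clec7a, with a slope of -0.030 ± 0.042 (SE, adjusted p = 0.659), and Cd300ld, with 0.33 ± 0.10 (SE, adjusted p = 0.0523), did not pass. Lilra6 and Fcrls, among the 8, passed the filter (above background on at least 2 arrays) only through knockout arrays. For them a rise was favoured before the test.

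Fcgr2b and Fcer1g had the steepest slopes of the 10 over both genotypes. Fcgr2b rose by 0.66 ± 0.063 per day (SE, adjusted p = 0.000926), Fcer1g by 0.65 ± 0.064 (adjusted p = 0.000978) and Fcgr3 by 0.61 ± 0.058 (adjusted p = 0.000916). Tyrobp rose by 0.59 ± 0.044 (adjusted p = 0.000369) and Fcgr4 by 0.57 ± 0.055 (adjusted p = 0.000948). These 5 kept their call under all 16 other settings run for the single slopes. Fcgr1 rose more slowly, by 0.22 ± 0.044 per day (adjusted p = 0.0116), and lost its call without the knockout day 3 array (adjusted p = 0.0706). Lilra6 rose by 0.43 ± 0.090 (adjusted p = 0.0141) and lost its call without the knockout day 3 or day 9 array (adjusted p = 0.0693 and 0.0596). Fcrls rose by 0.61 ± 0.16 (adjusted p = 0.0329) and lost its call without the knockout array of day 3, 7 or 9 (adjusted p = 0.174, 0.0513 and 0.135). Cd300ld passed instead without the knockout array of day 3 or day 9 (adjusted p = 0.0431 and 0.0345).

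Within the knockout arrays, 8 of the 10 genes rose with day, against 4.47% of all genes, and Cd300ld and Clec7a did not pass. Fcrls had the steepest knockout slope of the 10, 1.06 ± 0.087 per day (SE, adjusted p = 0.00253), fitted over 4 arrays of which that of day 3 was not above background. Fcgr2b rose by 0.75 ± 0.084 per day (adjusted p = 0.00414) and 22.2-fold over the days, and Lilra6 by 0.65 ± 0.079 (adjusted p = 0.00474) and 14.2-fold. Fcrls and Lilra6 were above background on 1 wildtype array each, so they passed the filter on dim probes only through knockout. For these 2 genes a rise in knockout was favoured before the test. Fcgr3, Fcer1g and Tyrobp rose 12.0-fold, 12.0-fold and 12.2-fold, Fcgr4 9.14-fold and Fcgr1 3.32-fold. Without the knockout day 3 array none of the 10 passed, and without any other single array 7 or 8 did. The slopes on the 3 arrays left were 1.17 for Fcrls, 0.35 for Fcgr1, 0.53 for Lilra6 and 0.57 for Fcgr2b. They were 0.45 for Fcgr3, 0.30 for Fcgr4, 0.42 for Fcer1g and 0.43 for Tyrobp, against 0.61, 0.51, 0.61 and 0.59 over 4 arrays. Those of Fcrls and Fcgr1 were thus no smaller than over 4 arrays, and the others named were smaller.

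Within the wildtype arrays, 6 of the 10 genes rose with day: Fcgr3, Fcgr4, Cd300ld, Fcer1g, Tyrobp and Fcgr2b. Of all genes 1.6% did. Fcer1g had a slope of 0.68 ± 0.093 per day (SE, adjusted p = 0.0208), Fcgr4 one of 0.63 ± 0.076 (adjusted p = 0.0168) and Fcgr2b one of 0.58 ± 0.084 (adjusted p = 0.0233). Over the days these genes rose 14.2-fold, 12.9-fold and 9.22-fold in wildtype. The filter on dim probes took in Cd300ld only through wildtype days 7 and 9, where it is high, so a rise there was favoured before the test, and with probes required above background on at least 4 arrays 5 genes passed and Cd300ld was not tested. The slope of Cd300ld was 0.055 ± 0.053 per day in knockout (adjusted p = 0.589) and 0.61 ± 0.053 in wildtype (adjusted p = 0.00734). The wildtype slopes of Lilra6, 0.22 ± 0.079, and Fcrls, 0.17 ± 0.087, did not pass (adjusted p = 0.169 and 0.314), nor did that of Fcgr1, 0.16 ± 0.058 (adjusted p = 0.165). Without the wildtype day 3 or day 9 array none of the 10 passed in wildtype, without the day 7 array 2 did, and without any other single array 6 did.

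**Figure D3:**
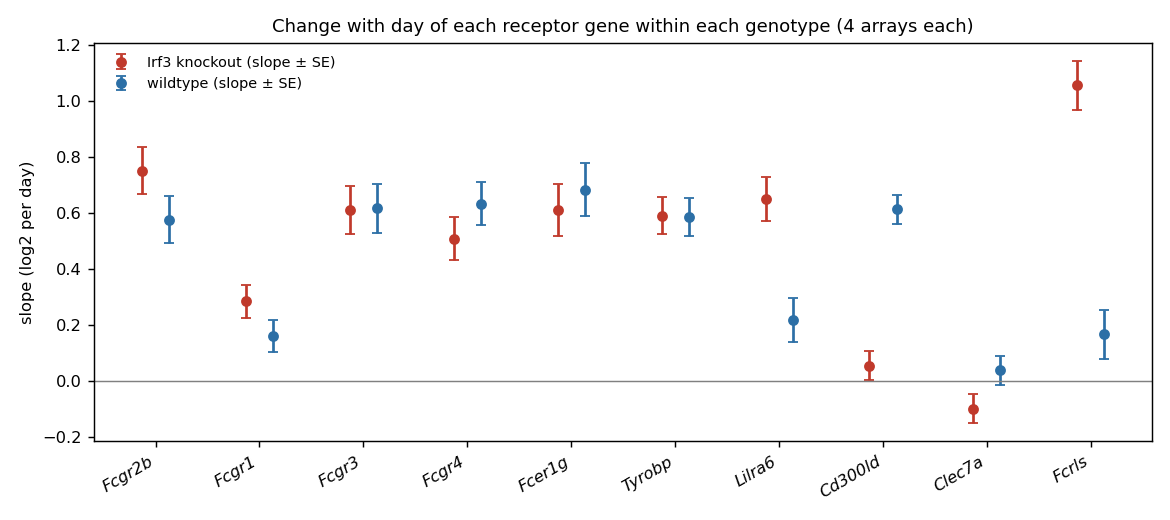
Slope of each gene within the 4 knockout arrays (red) and the 4 wildtype arrays (blue), in log2 per day on the vertical axis, with bars for the standard error. The slopes of Fcgr3 and Tyrobp nearly coincide between the genotypes, those of Fcrls and Lilra6 are higher in knockout (1.06 against 0.17 and 0.65 against 0.22), and that of Cd300ld is near 0 in knockout and 0.61 in wildtype.

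Whether the slopes differed between the genotypes was tested as the product of genotype and day. No gene of the 9758 passed with limma (0%), the lowest adjusted p being 0.158, while 595 genes had an unadjusted p under 0.05. Of those, 3 were among the 10. The slope difference was 0.89 ± 0.12 per day for Fcrls (SE, adjusted p = 0.158), -0.56 ± 0.075 for Cd300ld (adjusted p = 0.158) and 0.43 ± 0.11 for Lilra6 (adjusted p = 0.673). These 3 were above background on 3, 0 and 4 knockout arrays and on 1, 2 and 1 wildtype arrays, so their values rest in part on readings not above background. For the activating receptors for IgG the slope difference was -0.0058 ± 0.12 for Fcgr3, 0.12 ± 0.082 for Fcgr1 and -0.12 ± 0.11 for Fcgr4 (SE). It was 0.17 ± 0.12 for Fcgr2b, and 0.0044 ± 0.094 for Tyrobp and -0.074 ± 0.13 for Fcer1g, the adaptors. With errors of this size, equal slopes are not shown.

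The step of largest gain differed between the genotypes for some of the 10 genes, among them Fcgr2b, Fcer1g and Tyrobp, and was the same for others. In knockout Fcgr2b, Fcer1g and Tyrobp gained most between days 3 and 5 (2.18, 1.92 and 1.91 on the log2 scale), where wildtype gained 0.51, 0.62 and 0.79. In wildtype the largest gain was between days 5 and 7 (1.90, 2.17 and 1.47), where knockout gained 1.58, 1.43 and 0.97. Fcgr3 gained most between days 3 and 5 in both, by 1.80 in knockout and 1.63 in wildtype. Fcgr1 gained most between days 7 and 9 in knockout, by 0.91, and between days 3 and 5 in wildtype, by 0.91. Each step rests on 1 array at either end and has no test. Of the 10 genes, 8 read higher on the knockout array of day 5 than on the wildtype array of day 9, as did 53.5% of all genes.

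The 10 genes did not all move alike across the arrays. Over the 8 arrays Fcer1g and Tyrobp had a Pearson correlation of 0.994, Tyrobp and Fcgr2b one of 0.992, and Fcgr3 and Fcer1g one of 0.986. Cd300ld stood apart at -0.057 with Fcgr2b and -0.318 with Fcrls, and Clec7a at 0.352 with Fcgr2b. With the mean of each genotype subtracted, Cd300ld and Fcgr2b had 0.664 and Clec7a and Fcgr2b -0.376. These correlations describe 8 arrays that share the same days and carry no p.

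Outside the 10, the genes most like their mean standardized level over the 8 arrays were Ms4a6d (Pearson r = 0.998), Nckap1l (0.996), Laptm5 (0.996), Myo1f (0.995) and Ndufb3 (0.993). With the genotype means subtracted they were Ms4a7 (0.998), Ms4a6d (0.997), Myo1f (0.996), Nckap1l (0.994) and Hint2 (0.993). The genes most like Fcgr2b were Folr2 (0.998), Fyb (0.998), Plek (0.996), Syngr1 (0.995) and C1qc (0.994).

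The signalling genes downstream of these receptors and other receptors of the same kinds were then read from 7 lists of 110 genes, of which 70 were tested. For these the genotype difference was tested with limma with day as a factor, and adjusted over all genes. These lists, and the marker lists below, were chosen with earlier results of these data known. Their counts and p-values therefore describe the lists and are no independent test. Of the 70, 33 rose in knockout, none fell and 37 did not pass, where 2.74% of all genes rose and 2.11% fell. The count depended on single arrays: 45 or 46 passed without a day 3 array, and 15 to 18 without any other single array, of which the knockout arrays of days 5, 7 and 9 gave 18, 18 and 16 and the wildtype arrays 17, 16 and 15. None passed in a fit without a day term.

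Below the activating receptors, 10 of the 18 tested ITAM kinases and adaptors rose in knockout, and the median of the list was 1.10. That median lies between Pik3cd and Lcp2, which passed the filter only through knockout, where they are high. Lat2, a membrane adaptor, rose by 1.80 ± 0.14 (SE, adjusted p = 0.00127), Vav1, a guanine nucleotide exchange factor, by 1.62 ± 0.18 (adjusted p = 0.00398), Btk, a cytoplasmic tyrosine kinase, by 1.86 ± 0.23 (adjusted p = 0.00759), and Blnk, an adaptor for phospholipase C, by 0.99 ± 0.14 (adjusted p = 0.0125). Blnk was above background on 4 knockout and 2 wildtype arrays. Syk, the kinase that binds the phosphorylated ITAM, had a probe that was above background on too few arrays to be tested.

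Below the inhibitory receptors, 3 of 7 tested phosphatases and negative adaptors rose, with a median of 1.13. Dok2 and Dok3, adaptors that restrain tyrosine kinase signalling, rose by 2.41 ± 0.23 (SE, adjusted p = 0.00273) and 1.43 ± 0.20 (adjusted p = 0.0125). Ptpn6, the phosphatase SHP-1 that ITIMs recruit, rose by 1.75 ± 0.25 (adjusted p = 0.0125). Dok1 stood at -0.63 ± 0.18 (adjusted p = 0.115), and Inpp5d, the inositol phosphatase SHIP that Fcgr2b recruits, at 1.13 (adjusted p = 0.164).

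Of the other activating myeloid receptors, 5 of 11 rose, with a median of 0.89. That median is the value of Cd300lb, which was above background on 2 knockout arrays and on no wildtype array. Cd300lb thus passed the filter only through knockout, where it is high, and Oscar, at -0.71, only through wildtype. Trem2, a lipid-sensing receptor that signals through Tyrobp, rose by 2.53 ± 0.19 (SE, adjusted p = 0.00127). The C-type lectins Clec4d and Clec4n rose by 1.72 ± 0.17 (adjusted p = 0.00273) and 2.02 ± 0.25 (adjusted p = 0.00719), and Sirpb1a by 1.02 ± 0.13 (adjusted p = 0.00744). Fcer1a, the IgE-binding chain of the mast cell receptor that also needs Fcer1g, stood at -0.32 (adjusted p = 0.423).

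Of the list of other inhibitory myeloid receptors, 3 of 9 rose, with a median of 1.01, and both the count and the median include Lilr4b. That median is the value of Cd33, above background on 2 knockout arrays and 1 wildtype array. Cd33, Cd300a and Cd200r1 passed the filter only through knockout, where they are high, and Ceacam1 only through wildtype. Lilrb4a rose by 1.57 ± 0.20 (SE, adjusted p = 0.00855), Lilr4b by 1.68 ± 0.28 (adjusted p = 0.0217) and Milr1 by 1.27 ± 0.23 (adjusted p = 0.0272). Lilr4b is the near-identical neighbour of Lilrb4a and is known to lack its inhibitory motif, so 2 of the 3 that rose are inhibitory receptors, and the probes of the pair may read both. Cd200r1, the receptor for the restraining ligand CD200, stood at 1.24 ± 0.29 (adjusted p = 0.0637) and was above background on no wildtype array.

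Of 11 other immunoglobulin receptors, 2 were tested and neither passed. Fcgrt, the neonatal Fc receptor that recycles IgG, stood at 0.33 ± 0.14 (SE, adjusted p = 0.257) and Trim21, a cytosolic antibody receptor, at -0.45 ± 0.18 (adjusted p = 0.209). Their median was -0.063.

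**Figure D4:**
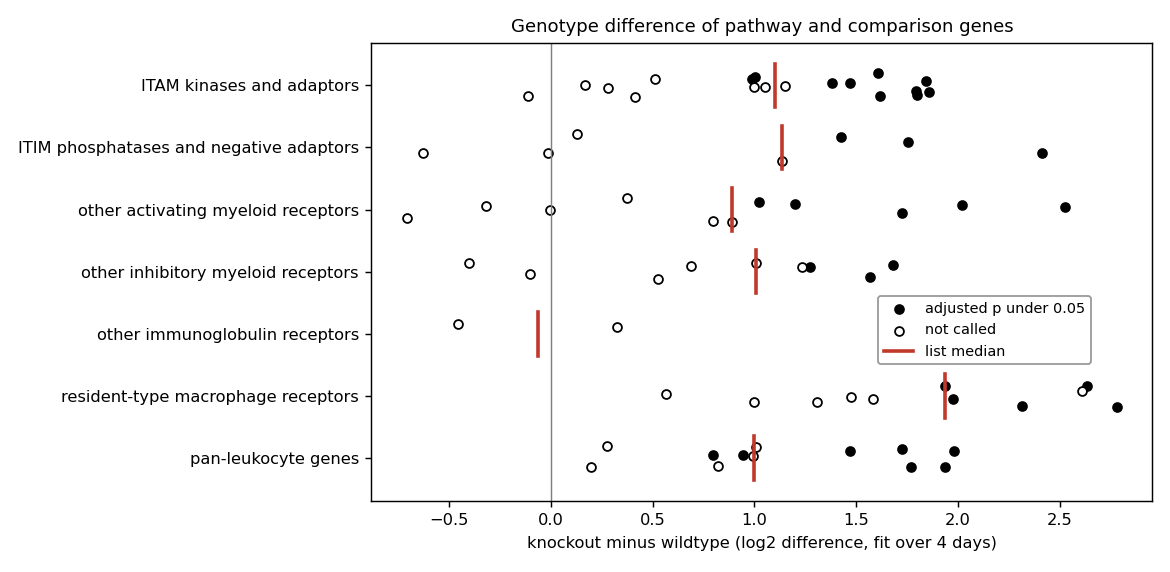
Knockout minus wildtype difference (log2, fitted over the 4 days, horizontal axis) of each tested gene in the 7 lists, filled where the adjusted p was under 0.05 and open where not, with a red bar for the median of the list. The medians lie between 0.89 and 1.94 in 6 lists and at -0.063 for the other immunoglobulin receptors. Those of the ITAM, activating, inhibitory and pan-leukocyte lists fall on or between genes that passed the filter only through knockout.

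Part of the pan-leukocyte and macrophage genes rose in knockout, while no mast cell marker did. Of 12 tested pan-leukocyte genes 7 rose, with a median of 1.0, among them Laptm5 by 1.94 ± 0.14 (SE, adjusted p = 0.000983), Cd53 by 1.98 ± 0.18 (adjusted p = 0.00220), Coro1a by 1.77 ± 0.17 (adjusted p = 0.00257) and Cd52 by 1.47 ± 0.27 (adjusted p = 0.0321). The 7 include Ptprc (adjusted p = 0.0365) and Cd37 (adjusted p = 0.0472), which passed the filter only through knockout, where they are high. Their calls were thus favoured before the test. Cd48, Itgb2 and Itgam, not called but part of the median, passed the filter in the same way. The median lies between Cd48 and Itgb2. Of 11 tested receptors of resident-type macrophages 5 rose, with a median of 1.94, among them Mrc1 by 2.78 ± 0.23 (adjusted p = 0.00159), Adgre1 by 2.63 ± 0.21 (adjusted p = 0.00132), Folr2 by 2.31 ± 0.24 (adjusted p = 0.00359) and Siglec1 by 1.98 ± 0.32 (adjusted p = 0.0200).

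All 10 macrophage markers that were tested, of 13 listed, lay above 0 for knockout minus wildtype, with a median of 1.68, and 4 passed (Adgre1, Mrc1, C1qb and C1qc). Adgre1, Mrc1 and Cd163 are also in the resident-type list above, so the 2 lists are not separate. The summed level of the 10 markers ran from 30863 to 108136 on the knockout arrays and from 20323 to 59874 on the wildtype arrays. On days 3, 5, 7 and 9 the markers' median difference was 0.97, 2.27, 2.40 and 2.20, and that of the 10 receptor genes 0.95, 2.07, 2.33 and 1.77. The part of the markers in the result was not tested.

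Of 6 tested mast cell markers none lay above 0 and none passed, with a median of -0.72 and a summed level of 1409 to 2090 in knockout and 1825 to 2874 in wildtype. Of the neutrophil list 4 genes were tested and S100a8 passed, higher in knockout by 1.81, while 4 of the 9 with a probe were above background on no array, and the sums were 411 to 667 in knockout and 292 to 547 in wildtype. The lymphocyte, natural killer and dendritic lists had 1, 2 and 3 genes tested and none passed. Of the labelled cell type, 7 adipocyte markers were tested and Pnpla2 rose, with a median of 1.54, and 7 preadipocyte markers were tested and Dlk1 rose, with a median of -0.27. Their part in the result was not tested.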

How the data were processed

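Total RNA of preadipocytes in differentiation was labelled as biotinylated cRNA and read on Illumina bead arrays, per the labels' protocols. The deposited table holds, per probe and array, a mean bead intensity on a linear scale without background subtraction, and a detection p-value that the authors deposited beside it, per the file headers. The authors' matrix of processed intensity values has a floor of 20, at which Lilra6, Cd300ld and Fcrls stand on all arrays; how it was normalized was not stated in the labels, and it served as an alternative. No column of values was left unmapped (0).

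Intensities were corrected with limma's neqc (version 3.58.1, R 4.3.3): normexp with negative controls inferred from the detection p, an offset of 16, quantile normalization and log2. The filter kept the 14232 probes above background (detection p under 0.05) on 2 or more of the 8 arrays, and the probe with the highest mean stood for each of 9758 genes. Of the 16 receptor probes 13 passed this filter. Gene names came from the platform annotation, brought up to date by Entrez ID; 1719 probes had no symbol.

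Linear models with empirical Bayes moderation (limma) were fitted over all genes: a slope per day with genotype (5 residual degrees of freedom), a slope per genotype and their difference (4), and genotype with day as a factor (3). P-values are two-sided and Benjamini-Hochberg adjusted over all genes, called under 0.05; the scripts were tested on simulated data. Differences of the 10 genes between genotypes are means and SDs of 4 daily differences, without a test. The number of arrays limits the precision.

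The genes and lists were chosen with earlier results of these data known. Named were the 10 genes with all their probes, up to 4 genes of each list with the smallest p for genotype, and the 5 genes most like the 10, or Fcgr2b, in pattern; Syk, Inpp5d, Fcer1a and the marker genes were named beyond that rule, after their values were seen. Alternatives were the background correction, the offset, median scaling, the deposited matrix, 2 other filters, every probe on its own, the variance prior, the form of the day term, and leaving out each array. No slide or batch was stated for the arrays, so none could be fitted.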

Additional observations from a re-analysis of the deposited data

How the results depend on the processing

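With 1 array per genotype and day, single arrays set several counts. The genotype fit, with day as a factor, pairs the arrays of a day. The count of receptor genes that rose with day, 8, was 6 to 9 under all 17 alternatives, and that for a difference in slope was 0 under all 16. With the deposited matrix 7 of the 10 genes were tested. With the filter at 4 arrays, or without wildtype day 7 or day 9, 9 were. The 8 calls within knockout were 0 to 8 with 1 array left out (0 without knockout day 3), and the 6 calls within wildtype 0 to 6 (0 without wildtype day 3 or 9, 2 without day 7); the cause was not tested. The 33 pathway genes higher in knockout were 15 to 46 with 1 array left out, and 0 without a day term, which leaves the change over the days in the error. The median genotype difference of the 10 genes, 2.23, was 1.44 without background correction, which adds the background to both genotypes, and 1.98 to 2.33 with 1 array left out. Signs that turned belonged to values near 0. The slope difference of Fcgr2b ranged from -0.00025 (without knockout day 3) to 0.36 with 1 array left out, that of Fcgr4 from -0.33 to 0.0086 (without knockout day 9), and the knockout slope of Clec7a from -0.10 to 0.094 (without wildtype day 5, when another of its probes had the highest mean). Fcrls also lost its slope without the filter (adjusted p = 0.0585) or with a trended prior (0.0591), and Cd300ld gained it without background correction (0.0469), with an offset of 50 (0.0499) or with that prior (0.0351). Low signal limits Lilra6, Fcrls and Cd300ld: they were above background on 1, 1 and 2 wildtype arrays, and Cd300ld on no knockout array, so their differences at the early days are between readings near background. Clec7a and Fcgr1 were also near background in wildtype. On wildtype day 3 Clec7a was not above it, and Fcgr1 and Fcgr3 had a detection p of 0.0476 and 0.0451.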

Other observations

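Receptors of resident-type macrophages outside the Fc receptor families included some whose slope passed in knockout and not in wildtype; the 4 named here were chosen after their values were seen. Lyve1, a hyaluronan receptor, rose by 0.90 ± 0.067 per day in knockout (SE, limma adjusted p = 0.00247), against 0.20 ± 0.067 in wildtype (adjusted p = 0.149). Cd163, the receptor for haemoglobin and haptoglobin, rose by 0.68 ± 0.063 per day in knockout (adjusted p = 0.00272), against 0.079 ± 0.063 in wildtype (adjusted p = 0.517). Vsig4, a complement receptor, rose by 0.57 ± 0.058 in knockout (adjusted p = 0.00301), against 0.15 ± 0.058 in wildtype (adjusted p = 0.192). Clec10a, a galactose-binding lectin, rose by 0.53 ± 0.054 in knockout (adjusted p = 0.00301), against 0.17 ± 0.054 in wildtype (adjusted p = 0.115). The difference in slope did not pass for any of the 4 (adjusted p = 0.158 for Lyve1, 0.211 for Cd163, 0.525 for Vsig4 and 0.570 for Clec10a). Lyve1, Cd163 and Vsig4 were above background on 3 of 4 arrays in each genotype.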
